A study of Mus musculus with 3 samples.

Results

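The carriers of organic ions, peptides and nucleosides were examined in the choroid plexus epithelium (CPE) of the mouse. Members were all probes named for the Slc10, Slc15, Slc17, Slc22, Slc28, Slc29, Slc44, Slc47 or Slco families, with the exception of *Slco1c1* and *Slco2a1*. This gave 82 probes of 59 genes among 41174 probes on the array, and no probe carried an Slc47 name. The CPE came from 3 C57BL/6 mice that were healthy and 18 to 21 weeks of age. Epithelial cells were laser dissected from the lateral ventricles of frozen brains, and the amplified RNA of each mouse was hybridised on its own array. CPE RNA was labelled red (Cy5). The green label (Cy3) was that of a common reference, 1 RNA from wild type retinal pigment epithelium (RPE) and choroid, used on every array. Dyes were not swapped, so a dye bias of a probe cannot be told apart from a difference between the tissues.

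The CPE makes cerebrospinal fluid (CSF) and forms the barrier between blood and CSF. Carriers of these families take up metabolites, drugs, hormones, peptides and nucleosides that cannot cross a membrane unaided. In the choroid plexus they are known for clearing organic anions and peptides from the CSF, and for moving thyroid hormones, nucleosides and vitamins between blood and CSF. Most are secondary carriers, driven by sodium, by protons or by exchange for another solute.

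Of the 59 carrier genes, 5 had high expression in the CPE by their brightest probe: *Slc22a17*, *Slc29a4*, *Slco1a4*, *Slc22a8* and *Slc28a3*. High expression meant a CPE signal above the 90th percentile of all probes, moderate expression the 50th to 90th, low expression the 10th to 50th and very low expression the 10th or less. When only probes well above background in every mouse were ranked, *Slc22a17* and *Slc29a4* stayed high, and *Slco1a4*, *Slc22a8* and *Slc28a3* were moderate at percentiles 84.0, 83.7 and 83.2. Against the reference, *Slc29a4* (11.6-fold), *Slc22a17*, *Slco1a5*, *Slc44a3*, *Slc28a3* and *Slc22a19* were higher in the CPE, and *Slco4a1*, *Slc17a6* and *Slc17a1* were lower. The organic cation carriers *Slc22a2*, *Slc22a3* and *Slc22a16* were low or very low, and none of them was well above background in every mouse.

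To show what lies upstream of the carriers at both ends of the comparison, the 250 bases before an annotated start of *Slc29a4*, *Slc22a17* and *Slco4a1* are printed from RefSeq, build GRCm38.p6, 5′ to 3′ on the strand of the gene. *Slc29a4* and *Slc22a17* had the largest ratios of CPE over reference among the members and *Slco4a1* the lowest. Capitals mark GGGCGG (the GC box) and TATAAA (the TATA box) on either strand, and overlapping copies were counted separately. The first lies at chr5:142701851-142702100 on the plus strand, the second at chr14:54913133-54913382 on the minus strand and the third at chr2:180455995-180456244 on the plus strand.
Slc29a4: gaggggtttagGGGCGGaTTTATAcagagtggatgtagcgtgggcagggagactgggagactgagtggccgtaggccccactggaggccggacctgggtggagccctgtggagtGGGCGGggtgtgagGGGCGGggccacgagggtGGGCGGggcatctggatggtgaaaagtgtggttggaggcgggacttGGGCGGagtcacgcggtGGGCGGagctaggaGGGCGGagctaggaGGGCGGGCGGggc
Slc22a17: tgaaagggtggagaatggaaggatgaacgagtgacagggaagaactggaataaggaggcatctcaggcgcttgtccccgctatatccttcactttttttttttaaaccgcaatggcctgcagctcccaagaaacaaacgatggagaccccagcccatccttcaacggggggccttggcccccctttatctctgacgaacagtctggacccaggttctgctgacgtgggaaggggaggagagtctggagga
Slco4a1: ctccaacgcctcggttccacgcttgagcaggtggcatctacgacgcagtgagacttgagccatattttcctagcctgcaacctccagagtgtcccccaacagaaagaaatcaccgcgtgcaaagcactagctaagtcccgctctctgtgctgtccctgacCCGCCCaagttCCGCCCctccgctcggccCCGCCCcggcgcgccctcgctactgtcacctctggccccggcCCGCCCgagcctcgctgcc
The *Slc29a4* window held 9 copies of GGGCGG and 1 of TATAAA, with a GC content of 68.8% and 16 CpG dinucleotides. This TATAAA lay on the opposite strand, near the 5′ end of the window and away from the annotated start. The *Slco4a1* window held 4 copies of GGGCGG, with a GC content of 64.8% and 21 CpG. The window of its other annotated start, not printed, held no GGGCGG and 1 TAATCC, with 54.8% GC and 4 CpG. The *Slc22a17* window held neither motif, with 53.6% GC and 8 CpG. Over all 32851 promoters of this length the median was 52.4% GC and 6 CpG, GGGCGG was in 32.7% and TATAAA in 12.4%. RefSeq promoters were found for 51 of the 59 carrier genes. Of their 68 promoters, 23 (33.8%) held GGGCGG, 6 (8.82%) held TATAAA and 4 (5.88%) held TAATCC, the core bound by Otx and Crx homeodomain factors, which was in 6.25% of all promoters.

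*Slco1a4* and *Slco1a5* are neighbouring paralogs on chromosome 6 that differed in their ratios below, and their windows are printed for that reason. They lie at chr6:141856221-141856470 and chr6:142278875-142279124, both on the minus strand. The other annotated start of *Slco1a5* is not shown. Capitals mark the longest run of bases that both share.
Slco1a4: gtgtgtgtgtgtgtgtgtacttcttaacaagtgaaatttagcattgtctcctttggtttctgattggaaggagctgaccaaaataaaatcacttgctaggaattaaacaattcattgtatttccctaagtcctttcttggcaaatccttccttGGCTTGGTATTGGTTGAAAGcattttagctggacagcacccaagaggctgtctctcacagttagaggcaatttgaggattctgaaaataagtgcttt
Slco1a5: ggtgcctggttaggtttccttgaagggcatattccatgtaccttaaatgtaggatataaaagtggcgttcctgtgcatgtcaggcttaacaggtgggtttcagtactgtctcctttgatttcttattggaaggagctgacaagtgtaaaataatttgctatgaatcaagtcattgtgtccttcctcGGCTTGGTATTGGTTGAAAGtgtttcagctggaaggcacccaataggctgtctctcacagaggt
In an alignment of the pair, 152 of 188 aligned bases (80.9%) were identical, and the longest shared run was 20 bases. The other start of *Slco1a5* aligned with 63.3% identity over 199 bases, and its longest shared run was 7 bases.

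The arrays differed in signal over background. Of all probes, 58.5% were well above background in the CPE of mouse 1, 46.0% in mouse 2 and 85.6% in mouse 3, and for the carriers this was 49, 38 and 74 of 82 probes. The fitted background surface of the CPE channel had a median of 363 on the array of mouse 3, against 81.2 and 82.6 on the other arrays. Log2 ratios of the 50 tested carrier probes had a Pearson's r of 0.937 between mice 1 and 2, 0.925 between 1 and 3 and 0.859 between 2 and 3. These are descriptions across probes, which share arrays and one reference RNA and are not independent replicates. The dissected tissue carried its markers: of 9 CPE markers on the array, 8 were higher than the reference, and all lay between percentile 97.5 (*Aqp1*) and 99.98 (*Ttr*). *Otx2* was the exception to the higher ratios, at 0.14. Of the RPE and melanocyte markers 8 of 9 were lower in the CPE, of photoreceptor markers 7 of 7, of neuronal markers 5 of 6 and of endothelial markers 0 of 6. The CPE signal of *Tyr* did not rise well above background in any mouse. *Dct*, *Si* and *Gnat1* nevertheless ranked in the high class of the CPE channel.

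The first question was how strongly the CPE expressed each carrier. By its brightest probe, expression was high for 5 genes, moderate for 24, low for 27 and very low for 3. By probe, 6 of 82 (7.32%) were high, where the class held 10% of all probes. The signal was well above background in every mouse for 37 of the 82 probes (45.1%), against 44.9% of all probes. A share near that of all probes says nothing particular about the carriers. Of the 24 moderate genes, 22 were well above background in every mouse. Of the 30 low or very low genes this held for *Slc22a19* alone, so the order of the others was set by signals near the background. A percentile ranks a probe on the array and does not order transcripts of different genes by abundance, because probes differ in how well they hybridise.

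**Figure D1:**
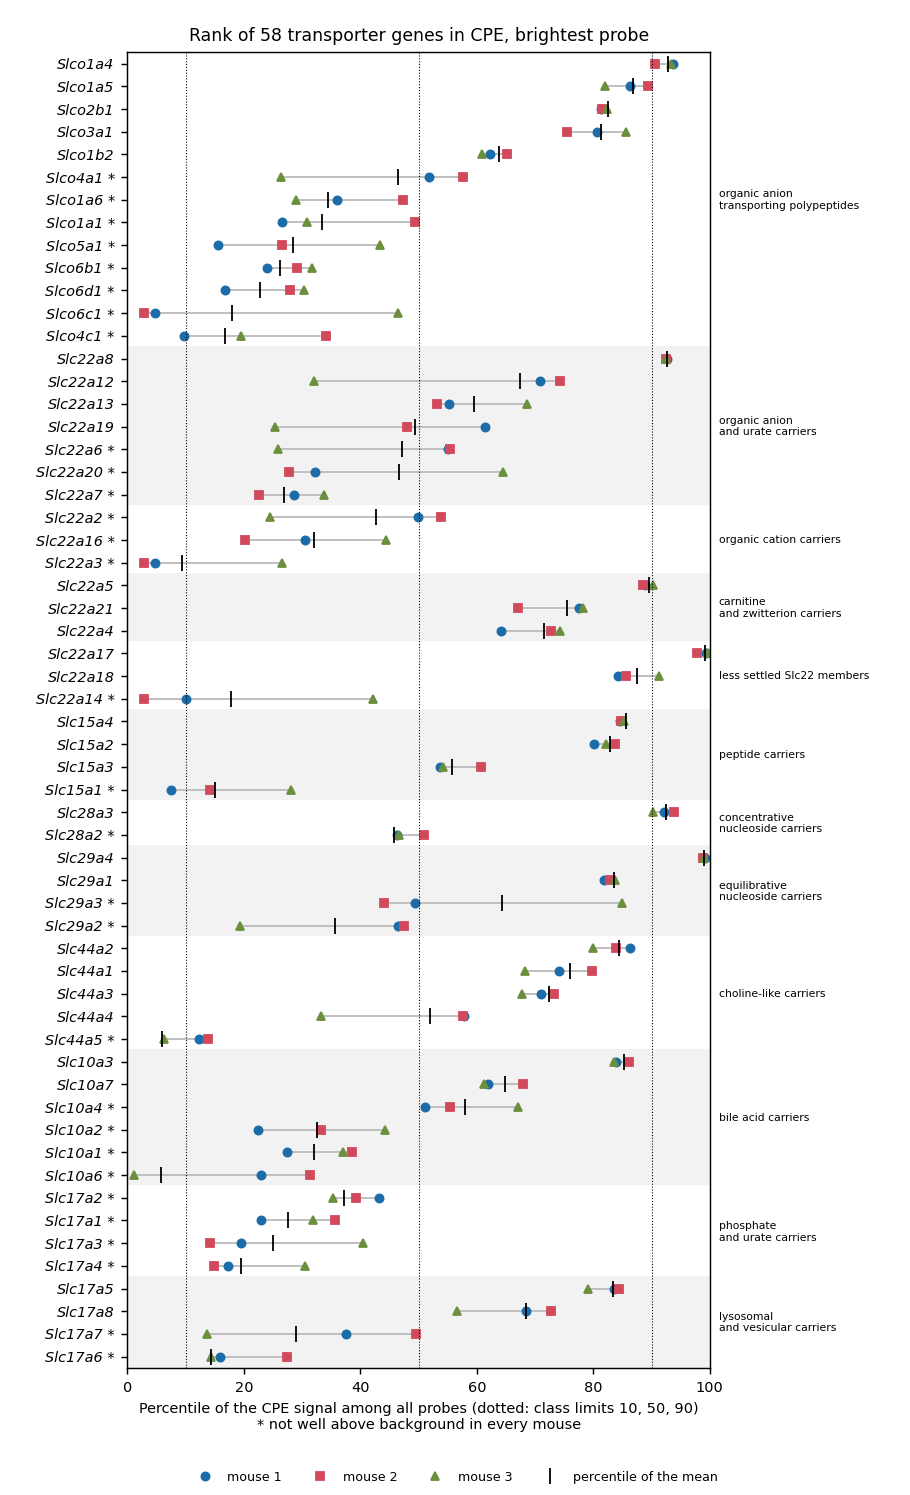
Percentile of the CPE signal among all probes (x axis) for the brightest probe of 58 carrier genes, grouped by role, with a point per mouse, a grey line over their range and a bar at the percentile of the mean. The 5 genes right of the dotted line at 90 are the high class, and genes with an asterisk, which were not well above background in every mouse, lie left of 50 except *Slc29a3* and *Slc10a4*.

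The second question was which carriers differed from the reference. Ratios were tested for the 50 carrier probes with 1 channel or both well above background on every array. A probe was called when the mean log2 ratio differed from 0 at an adjusted p under 0.05 in limma's moderated test, with Benjamini-Hochberg adjustment over 25838 probes, and the change was at least 2-fold. Of the 50 carrier probes 8 (16%) were higher, where 7.09% of all tested probes were higher, and 4 (8%) were lower, where 10.2% were. Without the fold limit 25 (50%) passed, where 39.2% of all tested probes did, and 27 (54%) had an unadjusted p under 0.05, where 48.2% did. By brightest probe, 6 of 37 tested genes were higher, 3 were lower and 28 were not called. The median log2 ratio was 0.23 over the 37 genes and 0.07 over the 50 probes, beside -0.040 over all tested probes. When ratios were centred on each array's median in place of loess, the median of all tested probes became 0.091 and that of the carrier genes 0.47, and the share of all calls that were higher rose from 41.1% to 67.0%. All 12 called carrier probes had the same sign in every mouse. In bulk RNA of this kind, fewer cells of a type and less RNA per cell cannot be told apart.

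**Figure D2:**
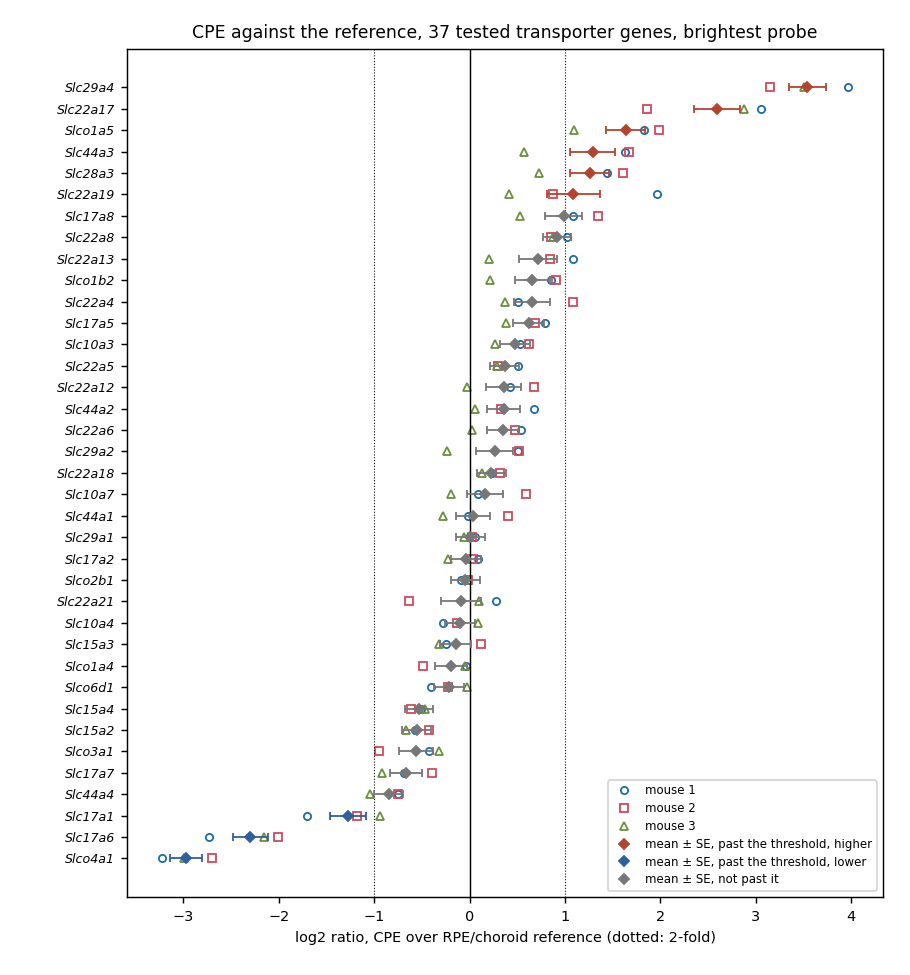
Log2 ratio of CPE over the RPE and choroid reference (x axis, 0 is no difference) for the brightest probe of the 37 tested carrier genes, ordered by the mean, with open symbols for the 3 mice and diamonds with bars for the mean ± SE. *Slc29a4* at 3.54 and *Slco4a1* at -2.98 form the ends, and the 6 red and 3 blue genes passed the threshold.

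Levels and ratios below come from different steps. A level is the log2 signal of 1 channel after Aquantile normalization with no background correction, and it keeps the intensity trend between the dyes. A ratio is red over green after background correction and loess, which removes that trend. A ratio is therefore not the difference of the levels printed beside it. CPE levels that lie above every reference level do not by themselves show that a gene differed. *Slc29a1* had CPE levels of 9.99, 9.74 and 10.14 and reference levels of 9.17, 9.57 and 9.26, at a log2 ratio of 0.01. Probe positions are those of the array design on build mm8, and exons were not assigned since annotation of that build was not used.

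Among nucleoside carriers, *Slc29a4* encodes the plasma membrane monoamine transporter, which moves serotonin, dopamine and, at acid pH, adenosine. Its probe (chromosome 5, 142977379 to 142977438) had CPE log2 levels of 14.25, 13.53 and 13.85 in mice 1, 2 and 3, and reference levels of 9.18, 9.82 and 9.68. The channels did not overlap, and the lowest mouse lay well above the highest reference. The CPE level was at percentile 98.999, between 98.8 and 99.1 in single mice. The log2 ratio was 3.97, 3.14 and 3.51, with a mean of 3.54 ± 0.19 (SE, n = 3; limma adjusted p = 1.9e-05), or 11.6-fold, and 4.28 with median centring. This ratio was above the 99th percentile of all tested probes, which was 2.20. The other equilibrative carriers did not pass the test. *Slc29a1*, the main equilibrative adenosine carrier, was moderate at percentile 83.5 with a ratio of 0.01 ± 0.15 (SE). *Slc29a2* was low at 35.6 with a ratio of 0.26 ± 0.20 (SE). The brightest probe of *Slc29a3*, a lysosomal carrier, lay at percentile 64.3 and was well above background in 2 mice, so its ratio was not tested. Another probe of this gene, low at percentile 42.1, was tested and had a ratio of -0.18 ± 0.18 (SE).

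*Slc28a3* encodes a sodium-coupled carrier that concentrates purine and pyrimidine nucleosides in the cell. Its 3′ probe (chromosome 13, 58562951 to 58563010) had CPE levels of 11.35, 11.39 and 10.91, at percentile 92.5, and reference levels of 9.04, 9.46 and 9.36. The 3 CPE levels were all above the reference. Its log2 ratio was 1.44, 1.60 and 0.73, with a mean of 1.26 ± 0.20 (SE, n = 3; limma adjusted p = 2.5e-03), or 2.39-fold, and 1.86 with median centring. The 5′ probe of the gene gave a different picture, and the pair spans 9730 bases. It lay at percentile 43.2, was well above background in 2 of 3 CPE samples, and had a ratio of 0.05 ± 0.20 (SE; limma adjusted p = 0.87). High expression of *Slc28a3* thus rests on 1 of its 2 probes. *Slc28a2*, another concentrative carrier, was low at percentile 45.7 and was not tested.

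The Slc22 family held the carrier with the highest rank. *Slc22a17*, named a brain type organic cation carrier and known as a receptor for lipocalin 2, had 2 probes in the high class. The 3′ probe (chromosome 14, 53861796 to 53862110) had CPE levels of 14.49, 12.80 and 15.03, at percentile 99.2, and reference levels of 10.25, 10.36 and 11.33. The 5′ probe (53862787 to 53862846) had CPE levels of 12.50, 9.18 and 12.60, at percentile 93.4, and reference levels of 8.76, 8.12 and 9.63. Mouse 2 was low at both probes. At the 5′ probe its CPE level fell below the highest reference level, so the channels overlapped there, and its percentile was 77.4 against 96.5 and 97.2 in mice 1 and 3. The log2 ratio of the 3′ probe was 3.05, 1.86 and 2.88, with a mean of 2.60 ± 0.24 (SE, n = 3; limma adjusted p = 2.0e-04), or 6.05-fold, and 3.35 with median centring. The 5′ probe gave 2.79, 1.503 and 2.27, with a mean of 2.19 ± 0.24 (SE; adjusted p = 4.5e-04). Without mouse 2 the ratios were 2.97 and 2.53. *Slc22a18*, from the same less settled branch, was moderate at percentile 87.6 with a ratio of 0.23 ± 0.15 (SE). *Slc22a14* was low at 17.8 and was not tested.

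*Slc22a8* encodes the organic anion transporter that takes up drugs and transmitter metabolites from the CSF. Its brightest probe (chromosome 19, 8677317 to 8677376) had CPE levels of 11.46, 11.09 and 11.25, at percentile 92.7, and reference levels of 9.497, 9.88 and 9.59. CPE levels were close together and above every reference level, which also held for *Slc29a1* at a ratio of 0.01. The log2 ratio was 1.02, 0.85 and 0.88, with a mean of 0.92 ± 0.15 (SE, n = 3; limma adjusted p = 2.7e-03). At 1.89-fold it stayed under the fold limit, and it passed with the ratio of the scanner software (1.10) and with median centring (1.53). The other 2 probes, on either side of it within 2022 bases in all, lay at percentiles 67.8 and 51.8 with ratios of 0.45 ± 0.19 and -0.28 ± 0.19 (SE), neither of which passed the test. Its neighbour *Slc22a6*, the classic renal organic anion transporter, was low at percentile 47.2. That probe was well above background in 2 CPE samples, with a ratio of 0.35 ± 0.17 (SE; adjusted p = 0.14).

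*Slc22a19* encodes a renal carrier of organic anions such as steroid sulfates. Its probe (chromosome 19, 7749964 to 7750787) had CPE levels of 8.24, 7.35 and 7.69, at percentile 49.4, and reference levels of 7.09, 7.14 and 6.77. The channels did not overlap, and the reference was well above background on 1 array. Its log2 ratio was 1.96, 0.88 and 0.42, with a mean of 1.08 ± 0.28 (SE, n = 3; limma adjusted p = 0.018). Mouse 1 was more than 1 log2 unit above the other mice, and without it the ratio was 0.65 (adjusted p = 0.10). The call was also lost with no background correction (0.87) and with median centring (0.91, adjusted p = 0.058), whereas the scanner ratio was 2.92. The urate carriers *Slc22a12* and *Slc22a13* were moderate at 67.4 and 59.5, with ratios of 0.36 ± 0.18 and 0.71 ± 0.20 (SE), and were not called. *Slc22a20* and *Slc22a7* were low and not tested.

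All 3 carnitine carriers were moderate and none was past the threshold. *Slc22a5*, the sodium-dependent carnitine carrier of the plasma membrane, was the closest of all genes below the high class, at percentile 89.5. Its CPE levels at the 3′ probe were 10.83, 10.42 and 10.90, with reference levels of 9.44, 9.85 and 9.74, and the log2 ratio was 0.37 ± 0.15 (SE, n = 3; limma adjusted p = 0.095). The 5′ probe, within 568 bases, had CPE levels of 9.85, 8.52 and 10.36 and a ratio of -0.01 ± 0.23 (SE). Mouse 2 was low at the 5′ probe by more than 1 log2 unit and close to the others at the 3′ probe. *Slc22a21* lay at percentile 75.4 with a ratio of -0.09 ± 0.21 (SE), and *Slc22a4*, a carrier of ergothioneine, at 71.5 with 0.66 ± 0.19 (SE). The 3 genes lie next to each other on chromosome 11, between 53708471 and 53826821.

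Organic anion transporting polypeptides (Slco) carry bile salts, steroid conjugates and thyroid hormones without sodium. Of 13 genes 1 was high, 4 were moderate and 8 low, and 7 were tested. *Slco1a4*, a carrier of bile salts and cardiac glycosides, had CPE levels of 11.68, 10.74 and 11.44, at percentile 92.8 (chromosome 6, 141768560 to 141768619). Reference levels were 10.64, 10.79 and 10.59, also at a high rank of 93.3, so mouse 2 overlapped with the reference. The log2 ratio was -0.04, -0.49 and -0.05, with a mean of -0.19 ± 0.17 (SE, n = 3; limma adjusted p = 0.40), and its 95% interval ran from -0.58 to 0.19. With median centring it was 0.47, also without a call.

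*Slco1a5*, which takes up bile salts and thyroid hormones at the CSF face of the epithelium, was moderate in the CPE and higher than the reference at both probes. The 3′ probe (chromosome 6, 142191748 to 142191807) had CPE levels of 10.48, 10.54 and 9.99, at percentile 86.9, and reference levels of 8.09, 8.55 and 8.18. The 5′ probe (142191996 to 142192055) had CPE levels of 10.57, 10.11 and 9.70 and reference levels of 8.23, 8.72 and 8.02. Channels did not overlap at either probe, and mouse 3 was the lowest at both. The log2 ratio of the 3′ probe was 1.83, 1.98 and 1.09, with a mean of 1.63 ± 0.20 (SE, n = 3; limma adjusted p = 7.8e-04), or 3.104-fold. The 5′ probe gave 1.72, 1.42 and 0.96, with a mean of 1.37 ± 0.19 (SE; adjusted p = 1.2e-03). *Slco1a4* and *Slco1a5* belong to a group of 5 neighbouring Slco genes between 141648361 and 142191807 on chromosome 6 that held every class but very low. Of the others, *Slco1b2* was moderate at 63.9 with a ratio of 0.66 ± 0.19 (SE), and *Slco1a6* and *Slco1a1* were low at 34.5 and 33.3 and not tested. These genes are close copies, and hybridisation of 1 probe to the transcript of another was not tested, since probe sequences were not used here.

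*Slco4a1*, a broadly expressed thyroid hormone carrier, was the lowest of all carriers against the reference. Its probe (chromosome 2, 180404076 to 180404135) had CPE levels of 7.67, 7.67 and 7.71, and reference levels of 10.20, 10.35 and 8.90. The channels did not overlap. The CPE was at percentile 46.5 and was well above background in 2 of 3 mice, whereas the reference was above background on every array. The log2 ratio was -3.23, -2.70 and -2.999, with a mean of -2.98 ± 0.17 (SE, n = 3; limma adjusted p = 2.2e-05). The size depended on how background was treated, and with the ratio of the scanner software the mean was -4.44 (adjusted p = 5.4e-03). *Slco2b1* and *Slco3a1* were moderate at 82.5 and 81.4, with ratios of -0.04 ± 0.15 and -0.57 ± 0.18 (SE), and were not called. *Slco4c1*, *Slco5a1*, *Slco6b1* and *Slco6c1* were low, between percentiles 16.8 and 28.5, and were not tested. *Slco6d1* was low at 22.8 with a ratio of -0.22 ± 0.16 (SE).

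The peptide carriers of family Slc15 use protons, and *Slc15a2* is known for removing dipeptides and tripeptides from the CSF. Its 5′ probe had CPE levels of 9.82, 9.82 and 10.01, at percentile 82.8, and reference levels of 9.58, 10.02 and 9.65. The groups overlapped, and the log2 ratio was -0.57, -0.43 and -0.66, with a mean of -0.55 ± 0.15 (SE, n = 3; limma adjusted p = 0.023), under the fold limit. The 3′ probe lay at 63.3 with a ratio of -0.19 ± 0.16 (SE). *Slc15a4*, a carrier of histidine and peptides in endolysosomes, was moderate at 85.6 with -0.53 ± 0.15 (SE). *Slc15a3*, of the same kind, was moderate at 55.8 with -0.15 ± 0.16 (SE), and *Slc15a1*, the intestinal peptide carrier, was low at 15.1 and not tested. In all, 3 of the 4 peptide carriers were moderate and well above background in every mouse, and none was called.

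Choline-like carriers (Slc44) included 1 call. *Slc44a3* (chromosome 3, 121451948 to 121452007) had CPE levels of 9.01, 8.79 and 8.99, at percentile 72.3, and reference levels of 7.47, 7.86 and 7.62. No CPE level reached down to the reference. Its log2 ratio was 1.63, 1.67 and 0.57, with a mean of 1.29 ± 0.24 (SE, n = 3; limma adjusted p = 4.5e-03), or 2.44-fold, with mouse 3 the lowest, and 2.09 with the scanner ratio. *Slc44a1*, the choline carrier found in most cells, was moderate at 76.1 with a ratio of 0.04 ± 0.18 (SE). *Slc44a2* lay at 84.4 and 83.2 with its 2 overlapping probes, at ratios of 0.36 and 0.37. *Slc44a4* also had overlapping probes, at 51.9 and 45.8 with ratios of -0.85 ± 0.16 and -0.82 ± 0.17 (SE), both under the fold limit in the reference's favour. *Slc44a5* was very low at 5.93 and not above background on any array.

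Bile acid carriers (Slc10) had no high gene and no call. *Slc10a3*, whose substrate is not settled, was the highest at percentile 85.3, with a ratio of 0.47 ± 0.16 (SE; limma adjusted p = 0.047). *Slc10a7* and *Slc10a4* were moderate at 64.8 and 57.9 by their brightest probes, and each had another probe in the low class, at 32.7 and 24.6. The hepatic and ileal bile acid carriers *Slc10a1* and *Slc10a2* were low at 32.0 and 32.5, and *Slc10a6*, a carrier of steroid sulfates, was very low at 5.79. The last 3 were not tested.

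In family Slc17, the phosphate and urate carriers *Slc17a1* to *Slc17a4* lie between 23827413 and 23906275 on chromosome 13, and all 4 were low, from percentile 19.5 to 37.2. *Slc17a1* (23902792 to 23902851) had CPE levels of 7.06, 7.17 and 7.81 and reference levels of 8.75, 8.89 and 7.53. On array 3 the levels ran the other way, so the channels overlapped. Its log2 ratio, after background correction, was -1.70, -1.18 and -0.94, with a mean of -1.28 ± 0.19 (SE, n = 3; limma adjusted p = 1.7e-03). The CPE was well above background in 1 mouse, and with the ratio of the scanner software the mean was -2.73. *Slc17a2* had a ratio of -0.03 ± 0.16 (SE), and the other members were not tested.

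Among lysosomal and vesicular carriers, *Slc17a6* encodes a vesicular glutamate transporter of neurons. Its 3′ probe (chromosome 7, 51538716 to 51538775) had CPE levels of 6.97, 7.08 and 7.46, at percentile 14.3, and reference levels of 9.40, 9.48 and 7.98. The channels did not overlap. The log2 ratio was -2.73, -2.01 and -2.16, with a mean of -2.30 ± 0.19 (SE, n = 3; limma adjusted p = 1.0e-04). With the ratio of the scanner software it was -3.93. The 5′ probe had CPE levels of 7.20, 7.25 and 8.43 and reference levels of 8.84, 9.01 and 7.66, which overlapped because array 3 ran the other way. Its ratio was -1.72, -1.24 and -0.23, with a mean of -1.06 ± 0.27 (SE; adjusted p = 0.017), and this call was lost without mouse 1 (-0.74), without mouse 2 (-0.98), with no background correction (-0.94) and with the scanner ratio (-2.17, adjusted p = 0.053). The CPE was well above background in 1 mouse at each probe. *Slc17a7*, another vesicular glutamate transporter, was low at 29.02 with -0.66 ± 0.17 (SE), and was not called. *Slc17a8*, the third of this kind, was moderate at 68.5. Its ratio of 1.08, 1.35 and 0.53 had a mean of 0.99 ± 0.19 (SE; adjusted p = 5.9e-03), just under 2-fold, and without mouse 3 it was called at 1.21. Its other probe lay at 35.8 with a ratio of 0.09 ± 0.16 (SE). *Slc17a5*, the lysosomal exporter of sialic acid, was moderate at 83.4 with 0.62 ± 0.16 (SE), and was not called.

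Markers of neurons and photoreceptors were, like *Slc17a6*, lower in the CPE. Sums over markers were made on signals after background correction, loess and Aquantile, a scale unlike that of the levels above. Signals of a channel were added and then put in log2. This sum for 6 neuronal markers was 10.5 to 11.1 in the CPE and 14.1 to 14.3 in the reference, with 5 of 6 lower. For 7 photoreceptor markers it was 12.1 to 12.5 against 17.2 to 17.3, with 7 of 7 lower. RPE and melanocyte markers summed to 12.3 to 12.8 against 17.8 to 17.9. The part of these cell types in the ratios of *Slc17a6*, *Slc17a1* and *Slco4a1* was not tested. Endothelial markers, summed to 12.9 to 13.5 in the CPE and 13.3 to 13.4 in the reference, overlapped between the channels, and 0 of 6 was called.

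**Figure D3:**
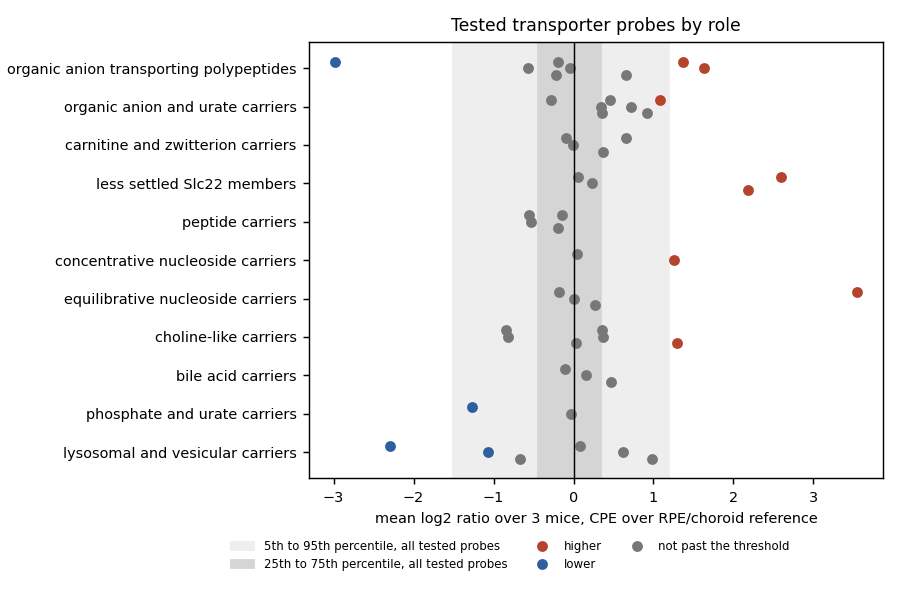
Mean log2 ratio over 3 mice, CPE over the reference (x axis), for each of the 50 tested carrier probes by role (y axis), with shaded bands for the middle of all tested probes. The bands run from -0.45 to 0.34 (25th to 75th percentile) and from -1.504 to 1.19 (5th to 95th), and the calls outside them lie in 6 of the 11 roles shown.

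Neighbouring carriers shared a class in some groups and not in others. Among the 59 genes, 22 lay in 7 groups of neighbours, in which brightest probes were at most 500 kb apart. Of the 7 groups, 4 held more than 1 class. In each of these 4 the classes rest in part on genes not well above background in every mouse. How often neighbouring genes over the whole array share a class was not tested. The groups that held 1 class were the moderate carnitine carriers on chromosome 11, the low phosphate carriers on chromosome 13, and *Slco4c1*, *Slco6b1* and *Slco6c1*, low, on chromosome 1. No gene of the groups on chromosomes 13 and 1 was well above background in the CPE of every mouse. On chromosome 19 *Slc22a8* was high and its neighbour *Slc22a6* low. The organic cation carriers *Slc22a3* and *Slc22a2* on chromosome 17 lay at percentiles 9.44 and 42.8, and *Slc22a16*, apart from them, at 32.0. None of these was tested.

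Several probes were present for 21 genes, and for 9 of these the probes fell in different classes. The 9 were *Slc10a4*, *Slc10a7*, *Slc17a3*, *Slc17a8*, *Slc22a8*, *Slc22a20*, *Slc28a3*, *Slc29a3* and *Slc44a4*, so the class of each depends on the probe. For 6 genes the probes at both ends did not overlap and were measured above background in each channel of every array. At 4 of the 6, *Slc22a5*, *Slc22a8*, *Slco1a5* and *Slc15a2*, the log2 ratio of mouse 2 stood lower against the mean of the other mice at the 5′ probe than at the 3′ probe. For *Slc22a5* the log2 ratio of mouse 2 deviated from that mean by -1.01 at the 5′ and -0.10 at the 3′ probe, and for *Slc22a8* -0.28 and 0.45. For *Slco1a5* the deviation was 0.08 and 0.52 and for *Slc15a2* 0.19 and 0.36, so mouse 2 stood above that mean at both ends. *Slc22a17* had -1.03 and -1.10, and *Slc22a18* 0.16 and 0.13, with little difference between the ends. The deviation also depends on mouse 3, which had the lowest ratio at both end probes of *Slc22a8* and *Slco1a5*. The same count over all genes with several probes is not given here. RNA quality of single mice was not analysed here, and its part in these deviations was not tested.

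**Figure D4:**
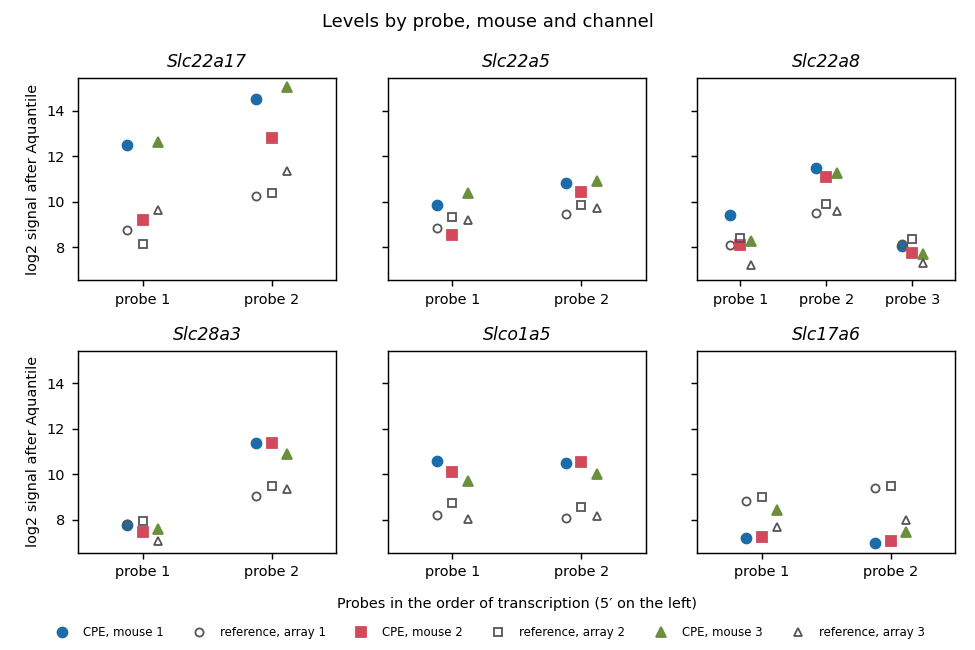
Log2 level of each probe after Aquantile (y axis) for 6 carrier genes with several probes, in the order of transcription, with filled symbols for the CPE of mice 1, 2 and 3 and open symbols for the reference on the same arrays. Mouse 2 lies below the other mice at both *Slc22a17* probes and at the first *Slc22a5* probe, and the *Slc28a3* and *Slc22a8* probes differ in level within a gene.

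Levels varied over the 3 arrays in both channels, although the reference was 1 RNA. The spread of the CPE holds the array's own error, from which the difference between mice cannot be told apart. Over the 35 carrier probes measured in both channels on all arrays, the median SD was 0.27 in the CPE and 0.29 in the reference, and the CPE had the larger SD at 18 (51.4%). Over all such probes the medians were 0.34 and 0.31. Mouse 2 had the lowest CPE level at 19 of the 35 (54.3%), against 52.2% of all probes. Of the 8 probes called higher, the smallest ratio was that of mouse 3 at 5 and of mouse 2 at 3.

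Of 41 enzymes, scaffolds and regulators that act with these carriers, 38 were on the array and 29 were tested by their brightest probe. Of the 29, 3 were higher and 2 lower, with a median ratio of 0.19. Over all tested probes 7.09% were higher and 10.2% lower, and counts this small say nothing particular about these genes as a set. Of the 3 scaffolds that anchor carriers in the membrane 1 was high, *Slc9a3r1* at percentile 91.2, with a ratio of 0.70 ± 0.16 (SE). Its relative *Slc9a3r2* was moderate at 83.3 and higher than the reference at 1.36 ± 0.20 (SE, n = 3; limma adjusted p = 1.6e-03). *Pdzk1* was low at 30.9 and was not tested. *Chdh*, which oxidises choline to betaine aldehyde, had 2.39, 2.33 and 0.83, with a mean of 1.85 ± 0.30 (SE; adjusted p = 2.6e-03), and *Dpep1*, a dipeptidase, had 1.23 ± 0.19 (SE; adjusted p = 2.3e-03). *Nt5e*, which makes adenosine outside the cell, was lower at -1.91 ± 0.16 (SE; adjusted p = 1.0e-04), and *Pcyt1a*, of phosphatidylcholine synthesis, at -1.05 ± 0.18 (SE; adjusted p = 3.2e-03). The calls of *Chdh*, *Nt5e* and *Pcyt1a* each rest on 1 of 2 probes. *Chka* and *Crot* were not called by their brightest probe, but 1 of 4 and 1 of 2 probes were lower. *Cpt1a*, the mitochondrial carnitine palmitoyltransferase, was high at 97.9, and so was *Nfe2l2*, a regulator of detoxification, at 96.4, neither with a call. Of the nuclear receptors and Hnf factors listed, none was called and none was high.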

How the data were processed

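The authors deposited 1 scanner table per array, made with Agilent Feature Extraction 9.5.3.1, that holds the mean intensity of each spot and of its local background in both channels. Per the file headers, these tables also hold the log10 ratio of processed red over green intensity. A deposited table of the series holds log2 levels, normalized between arrays with Aquantile by the authors, and its background correction is not given in the sources used here. It followed the CPE channel after loess and Aquantile (Spearman's rho over probes 0.998 to 0.999) and was used as an alternative.

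The analysis used R 4.3.3 with limma 3.58.1. Spots of a probe were averaged after removal of 2256 control spots and of 84 outlier values, none of them of a member. Percentiles used log2 mean red signals with no background correction, Aquantile between arrays and the mean over mice. The study's methods name mean intensities, Aquantile and percentile ranks, and do not mention background correction or loess. Ratios used normexp correction (offset 50), loess within arrays and an intercept in lmFit and eBayes, fitted on the whole array. The error holds no biological spread of the reference, which was a single RNA. A gene was described by its brightest probe over both channels. Values in every mouse are given for genes with a probe in the high class or past the threshold, and other genes by summary values. The values of 1 carrier gene, included in the counts, are not reported here. Accessions matched RefSeq for 72 of the 82 probes, and the other 10 kept the name in the scanner file. The members, gene lists and tests were chosen with earlier results of these data known. The fit was first tested on simulated data. The 3 arrays form 1 group, and their number limits the precision. Arrays 1 and 3 were scanned on the same day and array 2 on another, so scan day and mouse 2 cannot be told apart. Alternatives changed the background correction, the normalization, the filter on dim probes, the test, the array weights, the probes ranked, the choice of probe and the mice included.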

Additional observations from a re-analysis of the deposited data

How the results depend on the processing

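No result changed sign together with its call in any alternative that was run. Against a 2-fold change with limma's treat test, probes called higher went from 8 to 3, probes called lower from 4 to 2 and genes called higher from 6 to 2. Of all tested probes on the array, 17.3% were called in the main setting and 5.47% with treat. With only probes measured in both channels on all arrays, 0 of 4 lower probes and 0 of 3 lower genes could be called, because each was not well above background in the CPE of every mouse and left the test. With the ratio of the scanner software, 10 genes were higher and 5 lower, and 26.2% of all tested probes on the array were called. Median centring moved the median ratio of the genes from 0.23 to 0.47. When only probes well above background in every CPE sample were ranked, 2 probes stayed high, those of *Slc29a4* and *Slc22a17* (3′). Leaving out 1 mouse gave 7 to 9 higher and 3 to 4 lower probes, 5 to 7 higher and 3 lower genes, 6 high probes, and a median ratio of the genes of 0.18 to 0.34. Of the 12 called probes, 10 were shared with no background correction, 11 with the scanner ratio (of 18), 11 with median centring (of 14), 12 with no filter, 12 with array weights (of 13) and 5 with treat. Calls gained with the scanner ratio or median centring included *Slc22a8*, *Slc17a8*, *Slc17a5*, *Slc22a13*, *Slco1b2*, *Slc17a7* and *Slc44a4*. The deposited table left 6 probes high. Where a call was lost and no reason is given here, the cause was not tested. Low signal over background limits the order of genes in the low and very low classes. No paired analysis was possible because no other group shares replicate numbers with the 3 CPE samples, and each was already compared with the reference within its array.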

Other observations

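Another 10 probes of 8 genes belong to these families under RefSeq symbols but carry older names on the array, and they were not counted above. *Slc47a1*, an exporter of organic cations, had 2 probes, both low in the CPE at percentiles 39.1 and 24.7. Their reference levels were 8.58, 8.75 and 7.19 at the first and 8.66, 8.85 and 7.45 at the other, against CPE levels of 7.20, 7.40 and 7.96 and of 7.25, 7.47 and 7.21. The log2 ratios were -1.30, -0.74 and -0.12, with a mean of -0.72 ± 0.23 (SE, n = 3; limma adjusted p = 0.039), and -1.42, -0.85 and -1.79, with a mean of -1.35 ± 0.20 (SE; adjusted p = 1.9e-03). The second of these was past the threshold, and the CPE was well above background in 1 mouse at each probe. *Slc22a23* had 2 moderate probes at percentiles 69.1 and 64.6, with ratios of -0.09 ± 0.16 and -0.09 ± 0.21 (SE). *Slc15a5*, *Slc22a22*, *Slc22a26*, *Slc22a28*, *Slc22a29* and *Slc22a30* lay between percentiles 3.37 and 48.0 and were not tested.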
